A study of Homo sapiens with 28 samples.

Results

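The libraries described here came from MV4;11, an acute myeloid leukemia cell line that carries the MLL-AF4 translocation, after partial knockdown of the RNA-binding protein MBNL1 with the short hairpin shMBNL1-65. They were chosen by label alone and are 6 of the 28 libraries of the study, 3 with shMBNL1-65 and 3 with the non-targeting hairpin shNT. In every group the hairpin was delivered by lentivirus and transduced cells were kept under puromycin, so the controls carry a vector and the selection too. Neither the labels nor the methods state the day on which the MV4;11 cells were harvested, and nothing says that the replicates were separate cultures, so the p-values measure the spread between these libraries, which may be technical. TruSeq libraries made from total RNA were sequenced. Expression was given per gene in RPKM, which scales reads by gene length and library size, and splicing as PSI, the percent of the reads at an event that include the exon, intron or site. Beside them stand 3 MV4;11 libraries with a second MBNL1 hairpin, shMBNL1-64, and 4 shMBNL1-65 and 3 shNT libraries of MOLM13, another acute myeloid leukemia line with an MLL rearrangement. One hairpin sequence was used in each knockdown group, and both lines are established cell lines.

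MBNL1 is a splicing regulator of the muscleblind family that binds short pyrimidine-GC-pyrimidine (YGCY) motifs in pre-mRNA. Bound upstream of or within an exon it tends to favour skipping, and bound downstream it tends to favour inclusion, and many of its target exons shift between fetal and adult tissues. In myotonic dystrophy the muscleblind proteins are held on expanded repeat RNA and these exons are misspliced.

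MBNL1 itself, on chromosome 3 (GRCh37, chr3:151961617-152183569, plus strand), was lower in all 3 knockdown libraries. Its RPKM was 23.3, 25.4 and 18.5 in the shNT libraries (22.4 ± 3.53, SD, n = 3) and 10.7, 12.8 and 12.4 with shMBNL1-65 (12.0 ± 1.07, n = 3), or 53.3% of control. The groups did not overlap, with a log2 fold change of -0.85 (SE 0.14, limma adjusted p = 0.0367), and a two-sided exact permutation test gave p = 0.1, the smallest that 3 against 3 libraries allow. With shMBNL1-64 the RPKM was 3.62, 3.54 and 3.98, below every shMBNL1-65 library, and the direct test between the hairpins gave a log2 difference of 1.46 (adjusted p = 3.28e-05). The paralogs MBNL2 and MBNL3 were below the filter for testing, at 0.303 to 0.55 and 0.227 to 0.579 RPKM in the 6 libraries.

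The control libraries were less alike than the knockdown libraries. The mean correlation of a library with its own group was 0.967 to 0.9829 in shNT and 0.9916 to 0.9939 with shMBNL1-65, and shNT 3 stood apart from the other controls. On the first principal component of the 9 MV4;11 libraries, which held 58.0% of the variance, shNT 1 and 2 scored 37.2 and 27.1, shNT 3 -7.43 and the shMBNL1-65 libraries -13.0, -1.3 and 2.54. The files give no read totals. The step between low RPKM values placed the relative depth at 1.0 to 1.27 in shNT and at 1.35 to 1.66 with shMBNL1-65. All 12 myeloid markers reached 1 RPKM in at least 1 library of each group. Their summed level was 2568 to 3374 RPKM in shNT and 1440 to 1500 with shMBNL1-65, with 2 members called lower, LYZ and FCER1G (log2 fold change -0.61). LYZ alone was at 1717 to 2658 RPKM in shNT and 647 to 716 with shMBNL1-65, and no other myeloid marker was called. Of 3 T cell markers, CD3D was present and CD3E and CD2 were at 0.027 RPKM or less in all 6 libraries. The B cell markers summed to 0.745 RPKM or less, the erythroid markers to 0.163 or less, the megakaryocyte markers to 0.709 or less and the fibroblast markers to 0.622 or less, and none of their members reached 1 RPKM in any of the 6 libraries. Of the natural killer markers NCAM1 and NKG7 were present without KLRD1 (summed 31.2 to 45.6 RPKM in shNT and 42.0 to 49.1 with shMBNL1-65), and of the epithelial and packaging cell markers KRT18 was, with KRT8 at 1.03 RPKM or less (summed 3.68 to 5.7 and 3.59 to 3.95). In bulk RNA, fewer cells of a type and less RNA per cell cannot be told apart.

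At this partial knockdown 370 of 10197 genes tested were called changed (3.63%), that is past the 0.01 level of limma's moderated test on log2(RPKM + 1) before adjustment and changed by 1.5-fold or more. Of these, 181 rose (1.78%) and 189 fell (1.85%). All 370 had groups that did not overlap, as did 26.1% of all genes tested. With a Benjamini-Hochberg adjusted p under 0.05 in place of the raw p, 170 genes (1.67%) were past both limits, 64 higher (0.628%) and 106 lower (1.04%). Changes were modest in size, with a median log2 fold change of 0.72 among the genes that rose and -0.75 among those that fell, and 20 and 25 of them respectively changed by 2-fold or more. Leaving out shNT 3 gave 1338 genes, 1006 higher and 332 lower, and for 302 of the 370 called genes shNT 3 was the control closest to the knockdown mean, against 52.1% of all genes tested.

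The genes that rose and the genes that fell differed in base composition. The median GC content of the longest transcript was 58.9% in the genes that rose, 41.7% in those that fell and 48.0% over all genes tested, and across 10007 genes the log2 fold change rose with GC content (Spearman 0.579 across genes, which share the same 6 libraries and are not independent). A library's deviation from the gene mean followed GC content at -0.756 and -0.691 in shNT 1 and 2 and at 0.469 in shNT 3, and at 0.559, 0.03 and -0.137 in the shMBNL1-65 libraries (Spearman). After the trend with GC was removed from each library, 257 of 10007 genes were called (2.57%), 70 higher (0.7%) and 187 lower (1.87%), of which 57 and 147 were among the calls on the values as deposited. The falls were thus called in similar number on both scales and the rises were not, and each gene named in the following paragraphs as lost under the GC correction was no longer past both the 0.01 level and the 1.5-fold limit there. With the correction and without shNT 3, 423 genes were called, 161 higher and 262 lower. Beyond these fits, the part of GC content and of shNT 3 in the calls was not tested.

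**Figure D1:**
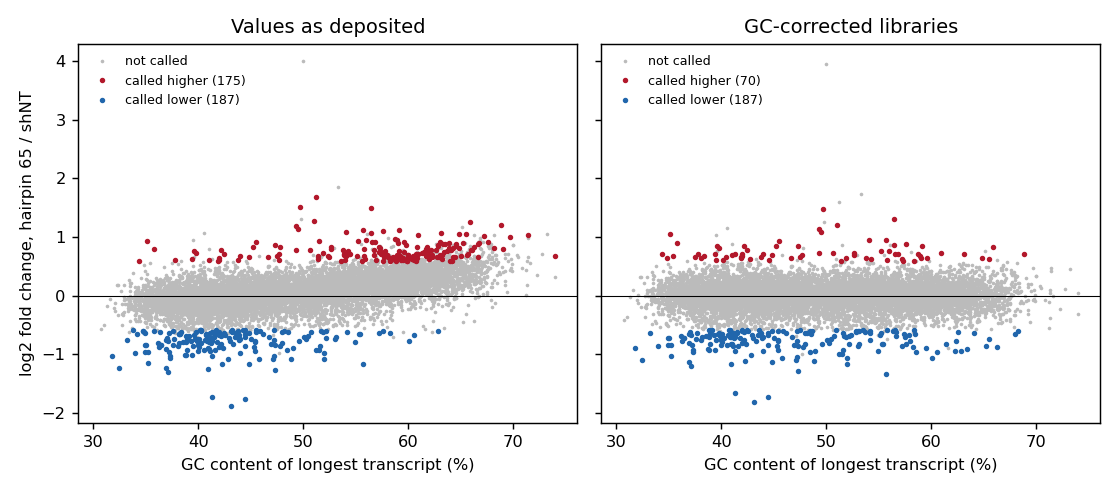
Log2 fold change of shMBNL1-65 against shNT (vertical axis) by the GC content of the longest transcript in percent (horizontal axis), one point per gene tested, on the deposited values (left) and after the GC trend was removed from each library (right). On the left the called genes that rose lie at a median GC content of 58.9% and those that fell at 41.7%, and on the right 70 and 187 genes are called.

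The 12 genes that fell most included enzymes of redox and nucleotide metabolism, phagocyte genes and cell cycle genes. PRDX3 (chr10:120927232-120938324, minus strand), the mitochondrial peroxiredoxin that reduces hydrogen peroxide, was at 92.8, 95.4 and 87.0 RPKM in shNT and 23.7, 23.3 and 25.6 with shMBNL1-65. It had the smallest p of all genes tested (log2 fold change -1.88, SE 0.10, adjusted p = 0.00088). Every shMBNL1-65 library lay far below every control, and the shMBNL1-64 libraries, at 87.4 to 89.7 RPKM, lay within the range of the controls (direct difference -1.83, adjusted p = 7.53e-06).

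SAMHD1 (chr20:35518632-35580296, minus strand), which hydrolyses deoxynucleotide triphosphates, was at 61.3, 54.2 and 35.2 RPKM in shNT and 12.1, 14.2 and 15.1 with shMBNL1-65 (log2 fold change -1.76, SE 0.20, adjusted p = 0.0181). NPTN (chr15:73852355-73926475, minus strand), the cell adhesion protein neuroplastin, was at 11.0, 11.0 and 9.53 RPKM and fell to 3.79, 3.70 and 3.77 (log2 fold change -1.27, SE 0.10, adjusted p = 0.00674). Both were higher with shMBNL1-64 than with shMBNL1-65, at 43.8 to 50.6 RPKM for SAMHD1 and 12.6 to 13.3 for NPTN, with direct differences of -1.67 and -1.56 on the log2 scale (adjusted p = 3.59e-05 and 8.47e-06).

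MTHFD2, a mitochondrial folate enzyme, was at 53.7, 48.3 and 39.2 RPKM in shNT, 18.8, 21.0 and 20.4 with shMBNL1-65 and 44.7 to 46.5 with shMBNL1-64. The shMBNL1-65 libraries were the lowest of the 9 (log2 fold change -1.18, adjusted p = 0.0181) and the direct test between hairpins passed (adjusted p = 3.73e-05). LYPLA1, an acyl-protein thioesterase, followed the same order (log2 fold change -1.15, adjusted p = 0.0247), with a mean of 75.7 RPKM in shNT, 33.2 with shMBNL1-65 and 65.3 with shMBNL1-64.

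Among phagocyte genes, LYZ, which encodes lysozyme, was at 2658, 2563 and 1717 RPKM in shNT and 647, 677 and 716 with shMBNL1-65 (log2 fold change -1.74, SE 0.17, adjusted p = 0.0164), and at 1327 to 1449 with shMBNL1-64. CYBB, the membrane catalytic subunit of the phagocyte NADPH oxidase, was at 14.9, 11.9 and 8.57 RPKM and fell to 4.24, 4.37 and 4.11 (log2 fold change -1.26, SE 0.18, adjusted p = 0.0268). The neutrophil chemokine CXCL8 was at 17.0, 12.5 and 8.64 RPKM and fell to 4.26, 4.82 and 4.76 (log2 fold change -1.25, adjusted p = 0.0387). In each of these genes shNT 3 was the lowest control and still lay above every knockdown library. S100A9, a calprotectin subunit, was called with the widest error of the 12 (5.99, 7.91 and 2.68 RPKM against 1.35, 1.74 and 2.16, log2 fold change -1.16, SE 0.30) and did not pass adjustment (adjusted p = 0.0885).

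CCNE2, which encodes cyclin E2, and CDC6, a loading factor of the replicative helicase, were also among the 12. CCNE2 was at 7.78, 7.80 and 5.22 RPKM in shNT and 2.13, 2.29 and 2.54 with shMBNL1-65 (log2 fold change -1.24, adjusted p = 0.0189). CDC6 was at 12.2, 13.5 and 10.2 RPKM and fell to 4.07, 4.62 and 5.67 (log2 fold change -1.17, adjusted p = 0.0189). Unlike the metabolic genes above, both were also low with shMBNL1-64, at 1.96 to 2.96 and 3.46 to 4.59 RPKM.

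**Figure D2:**
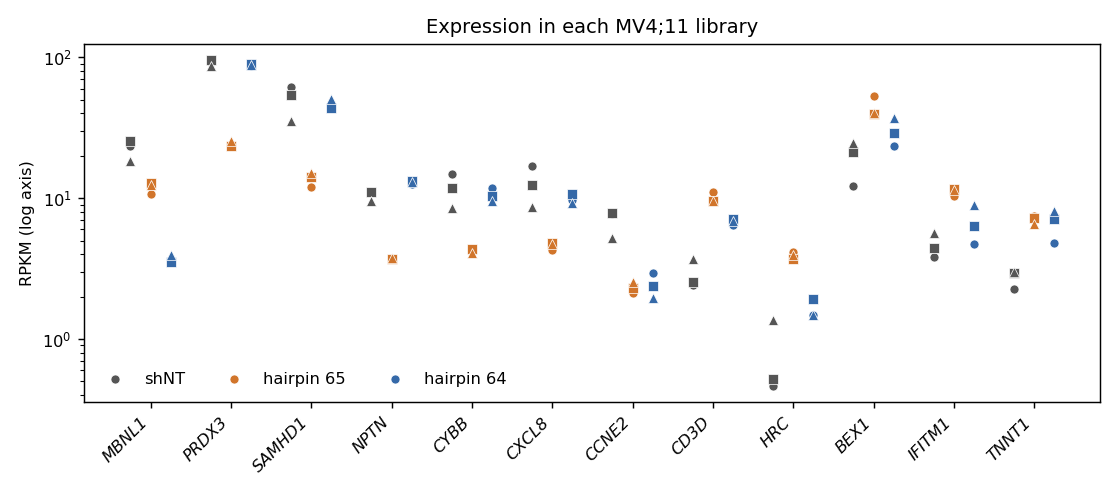
RPKM (log axis) of MBNL1 and 11 genes among the largest changes in each of the 9 MV4;11 libraries, shNT in grey, shMBNL1-65 in orange and shMBNL1-64 in blue, with circle, square and triangle for replicates 1, 2 and 3, whose numbers do not pair libraries. PRDX3, SAMHD1 and NPTN are lowest with shMBNL1-65, and MBNL1 is lowest with shMBNL1-64.

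The largest rises were mostly in genes of low level. CD3D (chr11:118209790-118213420, minus strand), a subunit of the T cell receptor complex, was at 2.41, 2.56 and 3.69 RPKM in shNT and 11.1, 9.50 and 9.56 with shMBNL1-65 (log2 fold change 1.52, SE 0.15, adjusted p = 0.0164), and at 6.50 to 7.12 with shMBNL1-64. HRC, a calcium-binding protein of the sarcoplasmic reticulum, was at 0.465, 0.523 and 1.37 RPKM and rose to 4.15, 3.67 and 3.97 (log2 fold change 1.5, SE 0.19, adjusted p = 0.0189). IFITM1, an interferon-induced membrane protein, was at 3.83, 4.40 and 5.65 RPKM and rose to 10.3, 11.7 and 11.5 (log2 fold change 1.13, adjusted p = 0.0189). No control overlapped a knockdown library in these genes.

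TNNT1, the slow skeletal muscle troponin T, rose from 2.27, 2.96 and 3.01 RPKM to 7.43, 7.22 and 6.52 (log2 fold change 1.11, adjusted p = 0.0164), and CTSW, a cathepsin of cytotoxic lymphocytes, from 0.879, 1.64 and 1.52 to 3.91, 3.51 and 4.77 (log2 fold change 1.12, adjusted p = 0.0268). DACT3, a Wnt pathway antagonist, rose from a range of 0.97 to 1.61 RPKM to 3.24 to 4.71 (log2 fold change 1.09, adjusted p = 0.0268). These stayed called under the GC correction, at 0.88, 0.85 and 0.95 on the log2 scale. BEX1, MXRA8 and PITX1 were called but did not pass adjustment (adjusted p = 0.0564, 0.059 and 0.0831). Their shNT 3 values of 24.8, 1.59 and 3.95 RPKM were the highest of the controls, against 39.5 to 53, 2.44 to 3.71 and 5.08 to 6.85 with shMBNL1-65. The lncRNA gene ENSG00000226920 sat at the value the file gives for no reads, 0.0538 RPKM, in the 3 controls and at 1.63, 1.46 and 1.59 with shMBNL1-65, while 2 of 3 shMBNL1-64 libraries were at that value too. The transcript ENSG00000260279 (1.41 to 2.66 RPKM against 0.0499 to 1.23, adjusted p = 0.0957) did not pass adjustment, and C1orf134 (4.14 to 4.96 RPKM against 0.102, 0.102 and 3.26, adjusted p = 0.11) was also lost under the GC correction, past the fold limit there but not the 0.01 level (adjusted p = 0.0775).

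Many DNA replication genes fell, and none rose. Of 35 tested members of a list of replication and G1/S genes, 17 fell, with a median log2 fold change of -0.57 against 0.06 over all genes tested, and 12 of the 17 also passed adjustment. After GC correction 19 fell and the median was -0.60. They included the helicase (MCM4, MCM6, MCM7, CDC45, GINS1 and GINS4), the sliding clamp and its loader (PCNA, RFC3, RFC4 and RFC5), nucleotide supply (RRM1, RRM2 and TYMS), MCM10, CDC6 and CCNE2. TYMS, thymidylate synthase, was at 50.5, 54.5 and 42.3 RPKM in shNT and 22.4, 21.5 and 23.9 with shMBNL1-65 (log2 fold change -1.08, SE 0.12, adjusted p = 0.0181). CDC45 was at 12.1, 13.7 and 13.1 RPKM and fell to 5.78, 6.18 and 4.95 (log2 fold change -1.08, SE 0.11, adjusted p = 0.0164), and MCM4 at 47.0, 48.6 and 40.5 fell to 24.1, 24.4 and 26.6. MCM6 lay just under the fold limit after GC correction. E2F1, a transcription factor upstream of many of these genes, was at means of 2.42 and 2.49 RPKM (log2 fold change 0.05, not called). With shMBNL1-64, set against the same controls, 12 of 33 tested members were lower and 1 higher, with a median of -0.49. Over all 10177 genes tested with that hairpin 267 were lower and 396 higher, with a median of 0.01.

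Of 31 tested G2/M and mitosis genes 9 fell and none rose, with a median log2 fold change of -0.43, and 7 were lower after GC correction. Only 2 of the 9 passed adjustment, CDK1 and MAD2L1. CDK1, the mitotic kinase, was at 13.5, 11.9 and 8.64 RPKM in shNT and 4.76, 5.92 and 5.84 with shMBNL1-65 (log2 fold change -0.91, SE 0.17, adjusted p = 0.0449). MAD2L1, a spindle checkpoint protein, was at 13.7, 14.6 and 11.9 RPKM and fell to 8.40, 8.71 and 7.99 (log2 fold change -0.61, SE 0.11, adjusted p = 0.0434). Under the GC correction it lay below the fold limit, at a log2 fold change of -0.52 (adjusted p = 0.015). HMMR, BIRC5 and ANLN fell without passing adjustment (adjusted p = 0.0615, 0.0645 and 0.0887), and ANLN lay below the fold limit under the GC correction, at -0.53 on the log2 scale (adjusted p = 0.00941).

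The granule protein list was mixed. Of 13 tested members 4 fell, LYZ, S100A9, RNASE2 and BPI, and none rose, with a median log2 fold change of -0.44. RNASE2, an eosinophil ribonuclease, was at 154, 176 and 107 RPKM in shNT and 74.5, 79.0 and 92.5 with shMBNL1-65 (adjusted p = 0.0794). BPI, which binds bacterial endotoxin, was at 4.98, 4.59 and 4.04 RPKM and fell to 2.37, 2.84 and 2.55 (log2 fold change -0.63, adjusted p = 0.043). The abundant azurophil proteases were not called, with means of 1054 and 1053 RPKM for PRTN3 and 184 and 301 for ELANE (log2 fold changes 0.11 and 0.95). After GC correction 7 members were lower, and without shNT 3 there were 4 higher and 5 lower. Over all genes the latter fit called 1006 higher and 332 lower. With shMBNL1-64, set against the same controls, the list had 3 members higher and 3 lower and a median of 0.51. Over all 10177 genes tested with that hairpin 396 were higher and 267 lower, with a median of 0.01.

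In the NADPH oxidase list 2 of 8 tested members fell, CYBB among them. Of 8 inflammatory genes tested, CXCL8 and IL1B fell. IL1B, the cytokine interleukin-1 beta, had a mean of 4.81 RPKM in shNT, with 4.15 the lowest library, and fell to 2.42, 2.29 and 2.52 (log2 fold change -0.77, SE 0.11, adjusted p = 0.0279). With shMBNL1-64 it was at 11.1, 10.1 and 9.16 RPKM, above every control (direct difference -1.70, adjusted p = 1.68e-05). The hairpins thus lay on opposite sides of the controls for this gene.

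Of 13 antigen presentation genes tested, HLA-DRA and HLA-DRB1 rose, both subunits of an MHC class II molecule. HLA-DRB1 was at 5.09, 7.39 and 6.59 RPKM in shNT and 12.6, 11.6 and 14.1 with shMBNL1-65 (log2 fold change 0.91, adjusted p = 0.0335), and its reads may be shared with near-identical class II genes. HLA-DRA was at 9.80, 13.6 and 11.4 RPKM and rose to 19.5, 18.0 and 21.2 (adjusted p = 0.0475). Of 13 interferon response genes 1 was called, IFI6, at 2.50, 3.07 and 5.46 RPKM against 11.2, 8.24 and 6.40 (adjusted p = 0.0803), and of 20 cytokine receptor and FLT3 signalling genes 1, SOCS2, a feedback inhibitor of cytokine signalling (5.02 to 5.94 RPKM against 1.79 to 3.96, adjusted p = 0.0794). FLT3 itself was at 274, 233 and 195 RPKM and at 196, 214 and 210 with shMBNL1-65 (adjusted p = 0.515).

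Single members were called in other lists. Over all genes tested 3.63% were called, so a single call in a list is not read as a result about that list. The fibronectin receptor subunit ITGA5 rose (60.9 to 64.0 RPKM in shNT, 97.1 to 109 with shMBNL1-65, adjusted p = 0.0268). Under the GC correction it lay just below the fold limit, at a log2 fold change of 0.56 (adjusted p = 0.00673). The chemokine receptor CXCR4 fell (9.19 to 11.8 against 5.10 to 5.78, adjusted p = 0.0335). Of 29 lysosomal genes MAN2B1 rose and LIPA fell, and neither passed adjustment (adjusted p = 0.103 and 0.0803). MAN2B1 lay below the fold limit under the GC correction (log2 fold change 0.38, adjusted p = 0.0227 there). In the MBNL and CELF list the RNA-binding protein STAU1 fell beside MBNL1 (8.30, 8.30 and 6.07 RPKM against 3.92, 4.55 and 4.2, log2 fold change -0.70, adjusted p = 0.05). LSM5, of 35 spliceosome genes tested, fell without passing adjustment (adjusted p = 0.108). It lay below the fold limit under the GC correction (log2 fold change -0.49, adjusted p = 0.0112 there). The scavenger receptor MARCO, of 16 monocyte genes tested, and UQCRB, of the 45 oxidative phosphorylation subunits, fell without passing adjustment (adjusted p = 0.0794 and 0.11). Both stayed called under the GC correction, as did MTHFD2 of the 24 stress response genes tested.

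No member was called in 12 of the 27 lists, which together held 266 different tested genes, with list medians from -0.17 to 0.21. Over all genes tested 3.63% were called. At the unadjusted 0.05 level in limma, with no limit on the fold, 53 of the 266 passed. The share of all genes past that level is not given here, so the 53 cannot be read as many or few. Without shNT 3 each of the 12 lists had at least 1 member called. Among them were 7 of the 60 ribosomal proteins and 6 of the 30 genes of the MLL, SETD1 and DOT1L complexes, all higher. The heat shock and p53 target lists each had 1 member higher and 3 lower. In that fit 1006 genes were called higher and 332 lower over all genes, so these counts are not read as results about the lists. After GC correction 1 MLL fusion target was called higher. The lists were the 34 SR and hnRNP splicing factors, 16 nonsense-mediated decay factors, 18 MLL fusion target genes, 30 genes of MLL, SETD1 and DOT1L complexes, 10 myeloid transcription factors, 8 progenitor genes, 22 p53 target genes, 14 BCL2 family genes, 13 heat shock genes, 26 cholesterol and fatty acid genes, 21 glycolysis genes and 60 ribosomal proteins. The myeloid transcription factor SPI1, for example, was at 95.9 to 151 RPKM in shNT and 122 to 152 with shMBNL1-65, and the progenitor gene MYB was at 84.4 to 114 and 89.2 to 98.7. The MLL fusion target LGALS1 was at 537 to 1023 and 787 to 1108 RPKM, and was called without shNT 3. GAPDH was at 1346 to 1699 and 1541 to 1742 RPKM.

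**Figure D3:**
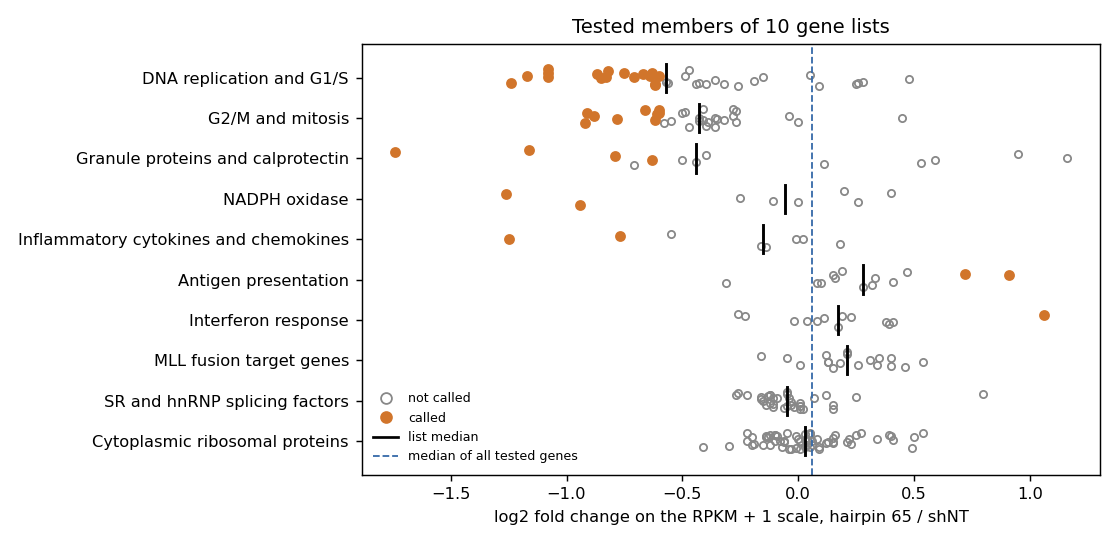
Log2 fold change on the RPKM + 1 scale of the tested members of 10 gene lists, one point per gene, filled where called, with a black bar at each list's median and a dashed line at the median of all genes tested (0.06). The replication list centres on -0.57 and the G2/M list on -0.43, and no member of the lists of MLL fusion targets, SR and hnRNP factors or ribosomal proteins is called with all 6 libraries.

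Splicing changed at 479 of 21685 event clusters tested (2.21%), taking as called an event past the 0.01 level in limma before adjustment with a PSI difference over 10 percentage points, and letting the event with the smallest p stand for its cluster of overlapping junctions. Inclusion, read for every kind of event as use of its shorter junction, rose at 264 (1.22%) and fell at 215 (0.991%). The groups did not overlap at any of the 479, as at 8.92% of all events, and 369 were measured in all 6 libraries. Adjusted for all events, 13 clusters passed (0.0599%), so most single events named here rest on the raw p. The calls lay in 467 of 9845 genes with a tested event (4.74%).

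Cassette exons made up 194 of the calls, 98 included more and 96 less, of 9830 clusters tested (0.997% and 0.977%). The exons included more went from a median PSI of 36.0% in shNT to 61.2% with shMBNL1-65, and those included less from 65.9% to 43.8%. Introns made up 85, of which 63 were retained more and 22 less, of 8586 (0.734% and 0.256%). The introns retained more went from a median of 0.873% to 24.9%, and 27 of the 63 were at 0 in every measured control. There were 45 alternative 3′ splice sites (26 or 0.813% more, 19 or 0.594% less), 40 alternative 5′ splice sites (18 or 0.69% more, 22 or 0.844% less) and 27 alternative promoters (14 or 0.888% more, 13 or 0.824% less). Alternative C-termini numbered 16 (5 or 0.469% more, 11 or 1.03% less), and 72 clusters were of other kinds (40 or 0.703% more, 32 or 0.562% less). Called events of each kind thus went both ways, with most introns going up.

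Over all events the library means hardly moved. Mean intron PSI over 21696 events was 6.62, 5.86 and 7.02% in shNT and 6.32, 8.49 and 7.29% with shMBNL1-65, a difference of 0.867 points (two-sided exact permutation p = 0.4, smallest possible 0.1). It was 0.307 points without shMBNL1-65 2, 0.547 without shNT 2 and 1.39 without shMBNL1-65 1. Mean cassette exon PSI over 22205 events was 61.5, 61.4 and 61.1% and 61.1, 61.2 and 61.2% (difference -0.169 points, exact permutation p = 0.3). Both sets of libraries overlapped, and with 1 event per cluster the cassette exon difference was 0.033 points. The genes with introns retained more had a median GC content of 56.6% against 49.7% over the intron clusters tested. Whether GC content or depth bears on the intron calls was not tested.

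Cassette exons of NUMA1 and INF2 were among those included less. NUMA1 encodes a protein that organizes spindle poles, and INF2 a formin that nucleates and severs actin filaments. Their exons are shown here with 60 bases of intron on each side because they were among the largest losses, were read in all 6 libraries and could be placed exactly from the deposited junctions. Capitals mark YGCY matches on the sense strand, that is TGCT as well as TGCC, and CGCT as well as CGCC, and the sequences were read 5′ to 3′ from GRCh37. They span chr11:71723387-71723548 on the minus strand and chr14:105181561-105181737 on the plus strand.
NUMA1: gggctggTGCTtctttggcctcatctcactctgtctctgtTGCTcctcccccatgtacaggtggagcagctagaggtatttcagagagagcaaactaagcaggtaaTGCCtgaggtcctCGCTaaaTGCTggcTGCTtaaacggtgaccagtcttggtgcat
INF2: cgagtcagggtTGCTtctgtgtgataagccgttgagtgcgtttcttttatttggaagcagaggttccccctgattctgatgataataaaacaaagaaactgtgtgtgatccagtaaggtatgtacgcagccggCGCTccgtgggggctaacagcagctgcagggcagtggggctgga

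The NUMA1 window holds 6 matches, 2 upstream of the 42-base exon and 4 downstream. The INF2 window holds 2 around an exon of 57 bases. Both exon lengths are multiples of 3, but the INF2 exon as printed holds a stop triplet (tga or taa) in each of the 3 frames. At least 1 match was present in 90.1% of 7090 such windows around tested cassette exons, with a median of 1.13 per 100 bases, in 88.9% of the 63 windows of exons included less (median 1.13) and in 93.9% of the 66 of exons included more (median 1.76). A match is a run of letters and not a measured binding site.

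The NUMA1 exon (chr11:71723447-71723488) was included at 77.4, 68.2 and 65.5% in shNT and 29.1, 29.8 and 25.7% with shMBNL1-65 (difference -42.1 points, SE 3.65, adjusted p = 0.126). The INF2 exon was included at 97.4, 88.9 and 78.4% and fell to 49.2, 53.1 and 49.0% (difference -37.8 points, SE 5.39, adjusted p = 0.29). With shMBNL1-64 the same exons stood at means of 5.70 and 16.8%, and the direct test between hairpins passed adjustment for INF2 (difference 33.7 points, adjusted p = 0.038) and not for NUMA1 (difference 22.5 points, adjusted p = 0.0601).

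Further exons were also included less. GIT2, a GTPase-activating protein for Arf, was included at 84.4, 81.4 and 80.6% in shNT and 47.9, 48.5 and 40.6% with shMBNL1-65, against a mean of 10.1% with shMBNL1-64. CCDC88C was at 91.3, 95.9 and 97.9% and fell to 60, 45.7 and 66.7%, and MACF1, a linker of microtubules and actin, at 100, 83.3 and 100% fell to 47.6, 47.5 and 38.7%. ARHGEF1, an exchange factor for RhoA, was at 31.5, 29.6 and 36.0% and fell to 12.0, 13.0 and 13.7% (adjusted p = 0.15). LRRFIP2 was at 89.1, 84.1 and 77.1% and fell to 56.2, 62.6 and 68.5%, and PPFIBP1, a liprin, at 45.3, 44.6 and 37.9% fell to 16.0, 15.8 and 7.69%. The PPFIBP1 level with shMBNL1-64 was 12.7, 17.3 and 11.1%, a direct difference of -0.555 points (SE 3.15, adjusted p = 1.0), while the other 5 exons were lower with shMBNL1-64 by their means.

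By the medians given above the exons included more started lower, although the APP exon started above those of ARHGEF1 and PPFIBP1. NUMB, an inhibitor of Notch signalling, was at 12.0, 13.3 and 18.1% in shNT and 54.0, 43.9 and 46.7% with shMBNL1-65 (difference 33.7 points, SE 3.38, adjusted p = 0.172). APP, the amyloid precursor protein, was at 55.1, 58.5 and 60.3% and rose to 92.7, 91.8 and 91.4% (difference 34.0 points, SE 1.51, adjusted p = 0.0452), close to the 98.4 to 99.3% seen with shMBNL1-64. DNM2, the membrane-scission GTPase dynamin 2, was at 22.7, 25 and 22.8% and rose to 38.8, 38.6 and 36.6% (difference 14.5 points, adjusted p = 0.0823). With shMBNL1-64 DNM2 stood at 73.6 to 75.0%, above shMBNL1-65 by 36.1 points (direct test, adjusted p = 0.00485).

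ACTN4, an actin crosslinker, was at 4.23, 3.68 and 3.34% in shNT, 14.6, 18.2 and 13.6% with shMBNL1-65 and 57.9, 52.5 and 51.8% with shMBNL1-64 (direct adjusted p = 0.0455). PTK2B, a focal adhesion kinase, was at 8.29, 7.60 and 6.99%, at 23.6, 22.5 and 26.7% and at 60.6, 50.9 and 48.7%. EXOC1, a subunit of the exocyst, was at 2.65, 1.82 and 0%, at 18.5, 13.9 and 12.6% and at 56.4, 58.8 and 46.8%. These 3 exons and that of DNM2 lay nearer the control than the shMBNL1-64 level. KAT5, an acetyltransferase, rose from 24.4, 23 and 22.7% to 36.7, 37.7 and 36.9% (adjusted p = 0.0392), and its shMBNL1-64 level of 30.4 to 39.5% overlapped that of shMBNL1-65.

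**Figure D4:**
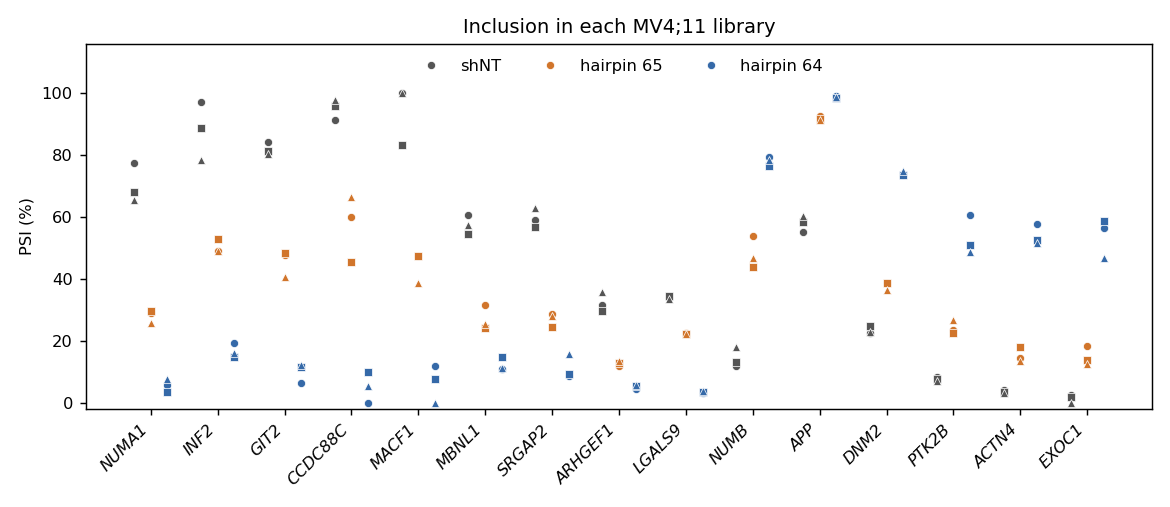
PSI in percent of 15 called events in each of the 9 MV4;11 libraries, shNT in grey, shMBNL1-65 in orange and shMBNL1-64 in blue, with circle, square and triangle for replicates 1, 2 and 3, whose numbers do not pair libraries. The shMBNL1-65 libraries lie between the other groups at every event shown, as for NUMA1 at 25.7 to 29.8% between 65.5 to 77.4% and 3.56 to 7.83%. The 15 events were picked for display. Called events outside this order, such as those of PPFIBP1, KAT5 and TMC6, are not shown.

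One exon that changed strongly with shMBNL1-64 was not called with shMBNL1-65. The FLNA exon, in the gene of the actin crosslinker filamin A, was included at 71.1, 67.8 and 67.8% in shNT and 73.2, 73.8 and 71.9% with shMBNL1-65 (difference 4.07 points, adjusted p = 0.707), and at 29.7, 30.2 and 32.0% with shMBNL1-64 (direct difference 42.3 points, adjusted p = 0.00393). The CD47 exon was also under the size limit, at 0.927, 0.172 and 0% against 3.67, 4.33 and 7.04%, and the MTMR1 exon, at 79.7, 98.1 and 81.8% against 82.6, 62.2 and 60%, had groups that overlapped (adjusted p = 0.968).

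Splice sites and transcript ends changed too. MBNL1 used one alternative C-terminal event at 60.6, 54.6 and 57.6% in shNT and 31.7, 24.3 and 25.6% with shMBNL1-65 (difference -30.4 points, SE 2.74, adjusted p = 0.136). SRGAP2, a Rac GTPase-activating protein, fell from 59.0, 56.9 and 63.0% to 28.8, 24.4 and 28.1% (adjusted p = 0.0823). PABIR2 rose from 43.8, 17.2 and 35.7% to 82.1, 76.6 and 74.7% at an alternative 3′ site (adjusted p = 0.37). The PABIR2 controls were widely spread but did not overlap the knockdown libraries.

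Adjustment over all events left 13 of them. In LGALS9, the gene of galectin-9, an event of the other kinds fell from 34.0, 34.5 and 33.7% to 22.6, 22.4 and 22.4% (difference -11.6 points, SE 0.237, adjusted p = 0.0101). It stood at 3.36 to 3.95% with shMBNL1-64 (direct adjusted p = 0.000955). APH1A, a subunit of gamma-secretase, which cleaves Notch and APP, rose from 65.3, 65.4 and 67.3% to 85.0, 87.1 and 87.3% (adjusted p = 0.0456). TMC6 rose from 64.8, 64.0 and 65.6% to 75.8, 75.5 and 76.5% (adjusted p = 0.0456), while its shMBNL1-64 libraries were at 64.1 to 73.1%. Of the 13 events, 7 were measured in all 6 libraries, those of LGALS9, APH1A, TMC6, APP, KAT5, IKZF1 and PKD1P3, the last in a pseudogene whose reads may come from near-identical copies. The other 6, in RNMT, MPP3, TECPR1, SLC36A4, STK36 and NEIL1, each lacked a value in at least 1 control library.

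Among the introns, DOT1L, which encodes the H3K79 methyltransferase, had one retained at 0, 0 and 12.5% in shNT and 37.8, 53.2 and 45.3% with shMBNL1-65 (difference 41.3 points, SE 5.82, adjusted p = 0.285), and at 60.8, 62.0 and 69.6% with shMBNL1-64. An intron of IKZF1, the lymphoid transcription factor Ikaros, was at 0 in all 3 controls and at 41.5, 37.4 and 44.2% (adjusted p = 0.0456). With shMBNL1-64 it was at 37.2, 55.1 and 0%. FAN1, a DNA repair nuclease, had an intron at 0 in all controls and at 40, 64.3 and 36%. In the opposite direction, an intron of RNMT, the mRNA cap methyltransferase, fell from 63.3 and 64.7% in the 2 controls with a value to 0 in all knockdown libraries of both hairpins (adjusted p = 0.0101), and one of the splicing factor SRSF1 from 13.0, 11.0 and 7.98% to 0 in all 3 (adjusted p = 0.257).

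**Figure D5:**
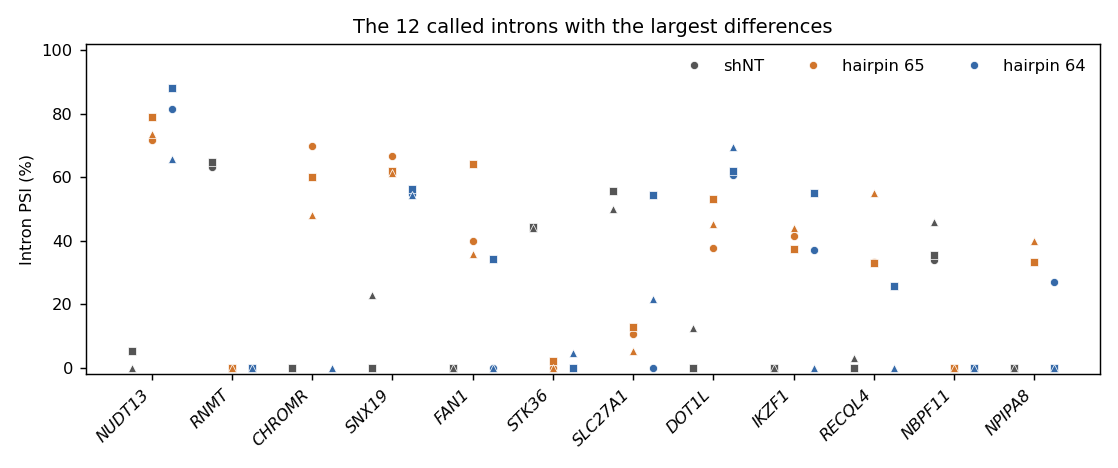
PSI in percent of the 12 called introns with the largest differences in each MV4;11 library, colours and shapes as in the plot of exon inclusion. In 8 of the 12 the shMBNL1-65 libraries lie above the controls, and in RNMT, STK36, SLC27A1 and NBPF11 below them. The NBPF11 and NPIPA8 introns lie in multi-copy gene families.

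The share of genes with a called event was also counted within lists, beside the 4.74% of all genes with a tested event. Of 34 genes with exons known to respond to MBNL proteins or to be misspliced in myotonic dystrophy, 11 held one (32.4%), 4 with more and 7 with less inclusion, and of 27 actin and focal adhesion genes 8 did (29.6%), 5 more and 3 less. Small GTPase genes (4 of 9), trafficking genes (4 of 11) and Notch genes (2 of 11) were lists the study drew up on these samples among others, so their counts are not independent evidence. Of 24 genes of MLL, SETD1 and DOT1L complexes 4 held one. Beside DOT1L, an EZH2 event rose from a range of 42.1 to 50% to 63.5 to 76.9%, and an MLLT3 event fell. Of 32 splicing factor genes 2 did (6.25%), SRSF1 and CELF1. The lists of this paragraph other than the study's own were also chosen with earlier results of these data known. DNM2, EXOC1 and NUMB count both among the 11 and in the study's lists, so the other shares are not independent evidence either.

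Expression and splicing were both called in 19 genes, MBNL1 among them. YBX3, a cold shock domain RNA-binding protein, fell from 55.1, 55.7 and 63.6 to 33.6, 32.6 and 32.5 RPKM (log2 fold change -0.80, adjusted p = 0.0219), and inclusion of its exon rose from 47.4, 46.9 and 54.9% to 61.1, 63.1 and 60.4%. With shMBNL1-64 the YBX3 level was 64.2 to 68.7 RPKM, above the controls, and the exon stood higher still at 79.3 to 82.9%. TPD52L2 fell from 10.9, 13.5 and 11.7 to 7.68, 6.79 and 7.36 RPKM, and FANCI, of the Fanconi anemia repair pathway, from 16.5, 12.7 and 9.92 to 5.97, 7.10 and 7.72 (adjusted p = 0.0421 and 0.0701). PLXND1, a semaphorin receptor, rose from 4.90, 6.11 and 7.35 to 13.8, 12.1 and 11.1 RPKM (log2 fold change 0.91, and 0.56 under the GC correction, below the fold limit, adjusted p = 0.0121), and its exon from 84.6 to 88.1% to 96.3 to 99.2%.

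The hairpins were compared directly because they left different amounts of MBNL1. Between shMBNL1-65 and shMBNL1-64, which share no libraries, 346 of 10227 genes (3.38%) and 592 of 22147 clusters (2.67%) were called. Expression was higher with shMBNL1-65 in 187 genes and lower in 159. PRDX3 and NPTN were lower with shMBNL1-65, as given above. SERINC3, a membrane protein, was at 25.7, 22.7 and 19.8 RPKM in shNT, 21.6, 21.2 and 21.6 with shMBNL1-65 and 7.87, 7.72 and 7.98 with shMBNL1-64 (direct difference 1.34, adjusted p = 1.68e-05), and the autophagy gene ATG3 was at 57.7 to 60.4 and 23.6 to 25.2 RPKM (direct difference 1.23, adjusted p = 2.74e-05). In these genes the shMBNL1-64 libraries were the ones that stood apart.

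The same hairpin in MOLM13, set against MOLM13 shNT libraries, gave a separate look at the genes and events called here. MBNL1 was at 18.9 ± 1.34 RPKM in MOLM13 shNT (n = 3) and 12.7 ± 3.13 with shMBNL1-65 (n = 4), a log2 fold change of -0.57 that was not called (limma adjusted p = 0.209), and 329 of 10156 genes (3.24%) were called, 179 higher and 150 lower. Of the genes lower in MV4;11, 65 were called lower in MOLM13 (34.4% of the MV4;11 list and 43.3% of the MOLM13 list), and of those higher, 20 were (11.0% and 11.2%). None was called in opposite directions, and the MOLM13 median log2 fold change was -0.60 for the genes lower in MV4;11, 0.47 for those higher and 0.05 for all. With both lines corrected for GC, 65 and 8 genes were shared.

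PRDX3 went from a mean of 107 to 34.6 RPKM in MOLM13 (log2 fold change -1.67), SAMHD1 from 33.0 to 11.3 (-1.44) and MTHFD2 from 64.7 to 22.9 (-1.58), none past adjustment there (adjusted p = 0.143, 0.143 and 0.147). NPTN fell from 12.6 to 3.87 RPKM (adjusted p = 0.0265). Of the G2/M list, 20 of the tested members were lower in MOLM13 with a median of -0.77, and 9 were called in both lines, among them CDK1, BIRC5 and MAD2L1. Of the 35 replication genes 1 was called lower in MOLM13, although the median of -0.57 equalled that in MV4;11. None of the 13 tested granule proteins was called there in limma, with 1 past the unadjusted 0.05 level.

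Of the 479 called clusters, 405 of the events that stood for them were tested in MOLM13. In the same direction 38 were called (9.38% of those tested, and 6.09% of the 624 clusters, or 2.99% of those tested, called in MOLM13) and in the opposite direction 4, where 1.28% of all MOLM13 events were called. INF2 fell from 90 to 49.3% in MOLM13 (adjusted p = 0.0862), NUMA1 from 66.7 to 36.0%, GIT2 from 84.0 to 57.3% and PPFIBP1 from 57.8 to 14.2%. NUMB rose from 19.2 to 44.2% and PABIR2 from 47.6 to 83.4%. None passed adjustment there (from NUMA1 on, adjusted p = 0.256, 0.311, 0.317, 0.4 and 0.301). All were picked from the 38. The events of DOT1L, IKZF1, CCDC88C, MACF1, ARHGEF1, EXOC1, PTK2B, KAT5 and LGALS9 named above were not among the 38. Of the 63 introns retained more, 57 were tested in MOLM13 and 8 were called, with a median difference of 9.05 points against 0 for all introns, and of the 22 retained less, 16 were tested and none was called in limma (2 past the unadjusted 0.05 level), with a median of 4.69 points. The cassette exons included less had a median of -7.59 points in MOLM13 (11 of 83 called) and those included more 4.04 (10 of 84).

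Whether the shMBNL1-65 effect differed between the lines was tested as an interaction. It was called in 86 of 10585 genes (0.812%), of which none passed adjustment in limma (552 were past the unadjusted 0.05 level), and in 443 of 20236 clusters (2.19%), of which 9 did. CYBB had the smallest p among genes (adjusted p = 0.0616), lower in MV4;11 as given above and at means of 2.59 and 3.75 RPKM in MOLM13. APH1A rose by 14.3 points more in MV4;11 than in MOLM13, where it went from 80.3 to 86.5% (adjusted p = 0.0199). The knockdown mean was 86.5% in both lines.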

How the data were processed

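RNA was measured in MV4;11 cells with shMBNL1-65 (3 libraries) or shNT (3), with shMBNL1-64 (3), and in MOLM13 with shMBNL1-65 (4) or shNT (3, labelled 4 to 6, which the labels do not tie to the shMBNL1-65 libraries). Libraries were grouped by their labels. The study's methods give 4 MV4;11 libraries each for shMBNL1-65 and shNT where the labels list 3. Per the submitters' processing notes and the methods, the authors aligned paired reads with STAR (version not given in the sources used here) to hg19 and quantified genes and junctions with AltAnalyze. The authors deposited RPKM per gene, with a small value per gene in place of no reads, and PSI as a fraction of junction reads per event, printed here as percent. Depth behind each value is unknown, so no counting intervals were given. A column of the authors' own PSI differences was not used.

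Genes averaging at least 1 RPKM in either group were compared on log2(RPKM + 1), so a fold change understates that of low genes. PSI was oriented to inclusion by taking the shorter junction of each event as the inclusion junction. For promoters, C-termini and events of other kinds, more or less thus means use of that junction. Events needed a value in over 50% of each group's libraries, and the smallest p chose the event of each cluster. Both used limma 3.58.1 in R 4.3.3 on the libraries of one comparison, at the 0.01 level with a change of 1.5-fold or 10 percentage points, following the study's methods, with Benjamini-Hochberg adjustment beside it. The fits were tested on simulated data. Alternatives varied the pseudocount, filter, scaling, replicate block and libraries. The GC trend (GENCODE transcripts, GRCh37) was removed with a lowess span of 0.3, an alternative chosen after seeing the data. Named genes were the 12 largest rises and falls, at most 5 called members of each list by smallest p (where none was called, the 2 most abundant), the events with the largest differences by type, past adjustment or in the splicing lists, genes called in both measures, and the 6 with the smallest p in the direct and interaction tests. PRTN3, ELANE, E2F1 and FCER1G were named after their values were seen. Of 6 exon windows, 2 were printed, leaving out a pseudogene and exons lacking a value in some library. A few genes that these rules select are not reported here. Members and lists were chosen with earlier results of these data known.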

Additional observations from a re-analysis of the deposited data

Results flagged for a closer look

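Results are listed here when the shMBNL1-65 effect differed between MV4;11 and MOLM13 in limma's interaction test, given as the MV4;11 effect minus the MOLM13 effect. Among genes the differences were -1.67 on the log2 scale for CYBB, 1.23 for CTSW, 0.96 for HLA-DRB1, -1.32 for CTGLF8P, -0.99 for AC092431.1 and 0.77 for ADD2. These are the 6 genes with the smallest p, and none passed adjustment (adjusted p from 0.0616 to 0.275). CTSW and ADD2 were under 1 RPKM in both MOLM13 groups, and CTGLF8P is a pseudogene of a multi-copy family.

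Among events 9 passed adjustment, of which 8 are given here. In 4 of them both MV4;11 groups were at 0% or 100% in every library: LRIG2 (-11.8 points, MOLM13 from 88.2 to 100%), OPLAH (-14.9 points, MOLM13 from 0 to 14.9%), DLL1 (-16.0 points, from 0 to 16.0%) and PFAS (-16.8 points, from 0 to 16.8%). MROH6 gave -79.8 points, from 87.4 to 77.8% in MV4;11 and from 0 to 70.2% in MOLM13. PPCDC gave -30.5 points, from 100 to 78.6% in MV4;11, where 2 knockdown libraries had a value, and from 80.6 to 89.7% in MOLM13. FAM83H gave 13.6 points, with an intron at 0 in every group except MV4;11 shMBNL1-65, at 13.6%. APH1A gave 14.3 points.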

How the results depend on the processing

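The depth of each library is unknown. Against 370 genes called (181 higher, 189 lower), there were 583 with a pseudocount of 0.1 (329 higher), 221 with no filter on low values (91 higher) and 170 at an adjusted p under 0.05 (64 higher, 106 lower). With a mean of 5 RPKM in either group 104 genes were higher, with median-centred libraries 118, and after GC correction 70. Leaving out 1 library gave 256 to 1338 genes, 110 to 1006 higher and 143 to 332 lower, the highest each without shNT 3 and the lowest total without shNT 2. Against 479 clusters, 214 had a difference over 20 points and 13 passed adjustment, and leaving out 1 library gave 425 to 649. Of introns retained more (63), 33 were over 20 points and 3 passed adjustment, with 45 to 139 called when 1 library was left out, 139 without shMBNL1-65 1 and 103 without shNT 3. Of introns retained less (22), 14 were over 20 points, 3 passed adjustment and 11 were called among events measured in every library. Of cassette exons, 38 included more and 42 included less were over 20 points, and 2 and 0 passed adjustment in limma. The interaction with MOLM13 gave 0 genes and 9 clusters at an adjusted p under 0.05, and the mean cassette exon difference was 0.033 points with 1 event per cluster. The cause of these shifts was not tested. Of 2480 values of single genes and events under all alternatives, 2042 kept their direction and their side of the threshold, 425 were no longer past it, 13 were newly past it and 0 reversed.

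The replicate numbers are shared between the groups, but the libraries of one number did not deviate together (r of -0.645, 0.0561 and -0.562 in expression and -0.0369, -0.0475 and -0.0469 in splicing). With the replicate block 367 genes and 371 clusters were called, and 67 genes were higher with the block after GC correction. Of the single results, 93 of 95 genes and 54 of 100 events kept their side of the threshold under the block.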
